A study of Mus musculus with 6 samples.

Results

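In bulk RNA-seq of a mouse leukemia, 10 genes of the pyroptosis pathway were examined by name: the pore-forming gasdermins Gsdmd and Gsdme, the inflammasome sensors Nlrp3, Aim2 and Nlrp1b, the adaptor Pycard, the inflammatory caspases Casp1 and Casp4, and the cytokine genes Il1b and Il18. All 10 had a row among the 53618 named rows of the deposited table. The cells were GFP+Lin-c-Kit+ splenocytes carrying AE9a, a truncated AML1-ETO fusion that drives acute myeloid leukemia, delivered by a GFP retrovirus into Usp18+/f UBCER-Cre fetal liver cells and grown in irradiated young adult C57BL/6 recipients. UBCER-Cre expresses a Cre recombinase from the ubiquitin C promoter in all tissues and is switched on by tamoxifen. Once mice were sick, 3 received oil (labelled Usp18+/f) and 3 received tamoxifen (labelled Usp18+/Δ), and cells were sorted 3 days after the first injection, with 1 library per mouse. Both groups carry the floxed allele, the Cre and AE9a, and no group received tamoxifen without Cre, so an effect of tamoxifen or of Cre activity cannot be told apart from loss of the Usp18 allele. The host immune system is that of a transplanted mouse, and in bulk RNA fewer cells of a type cannot be told apart from less RNA per cell.

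Pyroptosis is a lytic form of cell death in which a gasdermin is cut and its amino-terminal part opens pores in the plasma membrane. In the canonical route a sensor such as NLRP3, AIM2 or NLRP1B assembles with the adaptor ASC, encoded by Pycard, and activates caspase-1, which cuts gasdermin D and the precursors of interleukin-1β and interleukin-18. In the non-canonical route mouse caspase-11, encoded by Casp4, senses cytosolic lipopolysaccharide and cuts gasdermin D directly, whereas gasdermin E is cut by other proteases. These steps act on proteins, so the transcript levels below say which parts were transcribed and not whether any was cleaved.

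The groups were compared to ask whether transcripts of this machinery changed with the injection. Of the 5 members with enough reads to be tested, 0 were called changed at an adjusted p threshold of 0.05 by limma on log2(normalized count + 1), over 12298 genes tested, of which 0% were called in either direction. With no adjustment, the same test put 3.23% of genes higher and 1.24% lower (397 and 153 genes) at a p under 0.05, and no member among them. DESeq2 on recovered reads called 0.285% of 24247 genes higher and 0.00825% lower, again with no member. edgeR called 0 genes, and before adjustment its p was under 0.05 for 3.98% higher and 0.87% lower (489 and 107 genes). The main test required a normalized count of 10 in at least 3 libraries, which 5 members had: Gsdmd, Gsdme, Aim2, Pycard and Casp4. Casp1, Il1b and Il18 had few reads, Nlrp3 had at most 2 reads in a library, and Nlrp1b had none.

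Totals of recovered reads ran from 19172471 to 23785143 per library, and the value of 3 reads, taken here as the floor, from 2.69 to 3.83 normalized counts. Poisson intervals and floors cover counting error only, because no molecular identifiers were used and some reads may copy one molecule. The library labelled tamoxifen 1 stood apart from the other 5. Its median correlation with them was 0.913, against 0.981 to 0.990 for the others, and mitochondrial genes took 0.00923% of its reads, against 1.01% to 1.56%. Its departures also followed transcript GC content, with a Spearman coefficient of 0.70 across genes, against −0.23 to 0.034 elsewhere. The main results below are therefore given with and without that library. Usp18 itself was at 217, 214 and 176 normalized counts in oil 1 to 3 and at 477, 329 and 284 in tamoxifen 1 to 3. The targeted gene was thus not lower, although a gene-level count includes any exon outside the floxed segment, and the groups are named by their labels throughout. The interferon-stimulated gene Ifit1 was at 25.1 to 39.6 in oil and 226 to 298 in the libraries labelled tamoxifen. Among defining markers of the labelled cells, Kit (4687 to 10976) and Runx1t1, the gene of the ETO partner (1532 to 2097), were abundant in every library. The pan-leukocyte gene Ptprc (0.898 to 8.08) and the myeloid gene Mpo (0 to 20.2) were near 0, and erythroid genes such as Klf1 (4942 to 11837) were high.

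The levels of the 10 genes spanned more than the groups did. To compare genes, normalized counts were divided by transcript length in kb and averaged over the oil libraries. On that scale Gsdmd came first at 1048 ± 50.1 per kb (SD, n = 3), above 91.0% of 21610 protein-coding genes. Gsdme followed at 187 ± 9.02 and Aim2 at 161 ± 14.9 per kb, and their ranges of 177 to 195 and 145 to 174 did not overlap. Pycard was next at 122 ± 5.73 per kb, but its place depended on the gene model, because the annotated transcript of 3800 bp is mostly outside the coding sequence. Per kb of coding sequence Pycard rose to rank 2 at 802, behind Gsdmd at 1286 and ahead of Aim2 at 373 and Gsdme at 331. Casp4 at 24.3, Il18 at 11.9, Casp1 at 5.40 and Il1b at 3.16 per kb followed in that order on both scales. Casp1 and Il1b were not separated by their spread, with ranges of 4.34 to 6.44 and 0.685 to 5.96 per kb. Nlrp3 and Nlrp1b were last at 0. Thus the executioner gasdermins, the DNA sensor and the adaptor were transcribed well above the caspases that act between them.

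**Figure D1:**
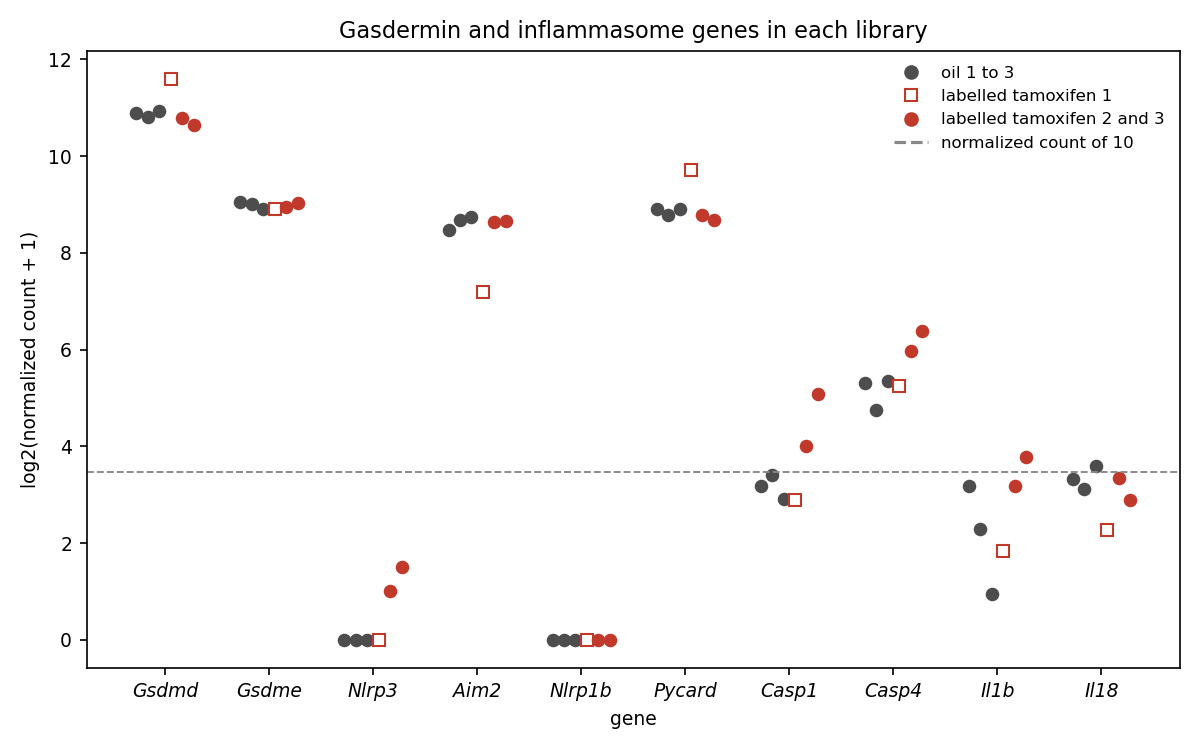
Level of each of the 10 genes in each library, as log2(normalized count + 1), with the genes on the horizontal axis. Filled grey points are oil 1 to 3, open red squares the library labelled tamoxifen 1, filled red points tamoxifen 2 and 3, and the dashed line a normalized count of 10. Gsdmd, Gsdme, Aim2 and Pycard lie far above the line in every library, Casp4 above it, and Nlrp3 and Nlrp1b at or near 0.

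Gsdmd encodes gasdermin D, the shared pore of both inflammasome routes, on chromosome 15 at 75862327 to 75867408 of GRCm38 on the plus strand. Its normalized counts were 1887, 1785 and 1964 in oil 1 to 3 and 3099, 1772 and 1589 in tamoxifen 1 to 3. One library labelled tamoxifen was thus above every oil library and the other two were below all of them. The means were 1879 ± 89.8 and 2153 ± 824 (SD, n = 3), a log2 difference of 0.13 with a 95% interval of −0.50 to 0.77 (limma, adjusted p = 0.80). An exact permutation test over libraries gave a two-sided p = 1, where 0.1 is the smallest that 3 against 3 allows. Without tamoxifen 1 the log2 difference turned to −0.16 (−0.35 to 0.03, limma adjusted p = 0.49), and with all 6 libraries corrected for GC content it was −0.018. An upward direction for Gsdmd therefore rested on tamoxifen 1.

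Gsdme encodes gasdermin E, a second gasdermin pore, on chromosome 6 at 50188888 to 50263862 on the minus strand. It stood at 529, 513 and 481 in oil 1 to 3 and at 482, 490 and 524 in tamoxifen 1 to 3, with the groups interleaved. The means of 508 ± 24.5 and 499 ± 22.3 (SD, n = 3) differed by −0.03 on the log2 scale, with a 95% interval of −0.38 to 0.33 (limma, adjusted p = 0.93). Without tamoxifen 1 the interval narrowed to −0.24 to 0.23 around −0.0021, so a change of more than about that size was outside the interval of those 5 libraries. The GC correction raised the value in tamoxifen 1 to 10.55 on the log2 scale, against 8.87 to 9.08 in the other 5, and the difference to 0.57 (−0.40 to 1.54, limma adjusted p = 0.67).

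The balance between the gasdermins shows how far 1 library moved these values. Per kb of transcript, Gsdmd exceeded Gsdme 5.41-, 5.27- and 6.19-fold in oil 1 to 3 and 9.75-, 5.48- and 4.60-fold in tamoxifen 1 to 3. Tamoxifen 2 lay within the oil range, tamoxifen 3 below it and tamoxifen 1 far above it.

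Among the sensors, Aim2 encodes a receptor for cytosolic double-stranded DNA, on chromosome 1 at 173350879 to 173466040 on the plus strand. It was at 356, 406 and 427 in oil 1 to 3 and at 146, 395 and 401 in tamoxifen 1 to 3. Tamoxifen 2 and 3 lay within the oil range, and tamoxifen 1 was lower than every other library. The means were 396 ± 36.7 and 314 ± 146 (SD, n = 3), with a log2 difference of −0.47 (−1.45 to 0.51, limma adjusted p = 0.67). Without tamoxifen 1 the difference was 0.010, with an interval of −0.26 to 0.28 (limma, adjusted p = 0.98), so the lower mean rested on tamoxifen 1.

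Nlrp3 encodes the sensor of potassium efflux and membrane damage, on chromosome 11 at 59541568 to 59566956, and Nlrp1b a sensor of anthrax lethal toxin on the same chromosome at 71153102 to 71230733. Nlrp3 had 0 reads in oil 1 to 3 and in tamoxifen 1, 1 read in tamoxifen 2 and 2 reads in tamoxifen 3. All of these are at or under the floor of 3 reads, so no order between the groups was read from them. Nlrp1b had 0 reads in all 6 libraries, which allows up to 3 reads in each, or 2.69 to 3.83 normalized counts. Nlrp1 genes are close paralogs, and reads placed equally well on several copies may not have been counted.

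Pycard encodes ASC, which links sensors to caspase-1, on chromosome 7 at 127989708 to 127993867 on the minus strand. Its normalized counts were 476, 439 and 477 in oil 1 to 3 and 842, 437 and 410 in tamoxifen 1 to 3. As for Gsdmd, tamoxifen 1 was above all oil libraries and tamoxifen 2 and 3 below all of them. The means were 464 ± 21.8 and 563 ± 242 (SD, n = 3), a log2 difference of 0.20 (−0.51 to 0.91, limma adjusted p = 0.74) that turned to −0.13 (−0.37 to 0.11, adjusted p = 0.67) without tamoxifen 1. With all 6 libraries corrected for GC content it was 0.38 (−0.53 to 1.29, limma adjusted p = 0.69). There tamoxifen 1 was at 10.18 on the log2 scale, against 8.71 to 8.88 in the other libraries. Strand use in the counting is not stated, and a predicted gene on the opposite strand, Gm45205, shares 485 bp of exon with Pycard but averaged only 1.89 normalized counts.

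**Figure D2:**
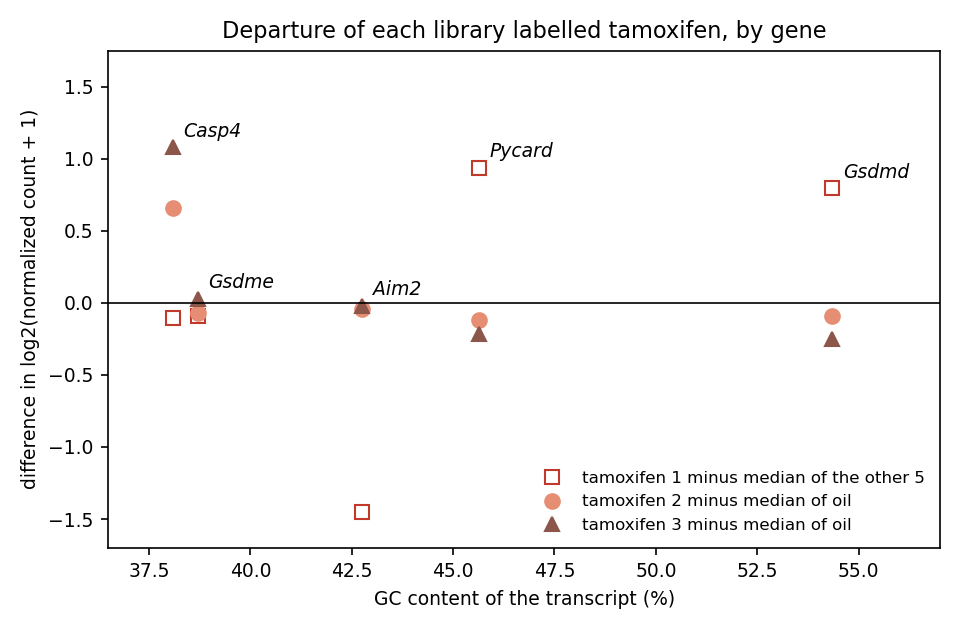
Departure of each library labelled tamoxifen in log2(normalized count + 1), plotted for the 5 genes tested against the GC content of the transcript in percent. Open squares are tamoxifen 1 against the median of the other 5 libraries, circles and triangles tamoxifen 2 and 3 against the median of oil. Tamoxifen 1 departs by 0.80 for Gsdmd, 0.94 for Pycard and −1.45 for Aim2, where tamoxifen 2 and 3 lie within 0.25 of oil, whereas for Casp4 tamoxifen 2 and 3 are the libraries that depart.

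The caspase genes lie side by side on chromosome 9, Casp1 at 5298517 to 5307265 and Casp4 at 5308828 to 5336783, both on the plus strand. Caspase-1 is the protease of the canonical inflammasome, and Casp4 in mice encodes caspase-11, whose transcript is known to be inducible by interferons and lipopolysaccharide. The regions upstream of their start sites are shown because Casp4 had the largest difference of the 5 genes tested and because the cells showed interferon-stimulated transcripts. Both are RefSeq windows of GRCm38.p6 from 250 bases before to 50 bases after the start site, on the plus strand, Casp4 at chr9:5308599-5308898 and Casp1 at chr9:5298267-5298566. Capitals mark matches to a kappaB motif.

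Casp4: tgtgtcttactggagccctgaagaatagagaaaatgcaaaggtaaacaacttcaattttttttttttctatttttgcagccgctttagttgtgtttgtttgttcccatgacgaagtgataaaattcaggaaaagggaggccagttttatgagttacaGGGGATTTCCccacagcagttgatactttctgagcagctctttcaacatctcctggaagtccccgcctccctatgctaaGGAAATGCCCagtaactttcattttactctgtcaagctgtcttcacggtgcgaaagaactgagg
Casp1: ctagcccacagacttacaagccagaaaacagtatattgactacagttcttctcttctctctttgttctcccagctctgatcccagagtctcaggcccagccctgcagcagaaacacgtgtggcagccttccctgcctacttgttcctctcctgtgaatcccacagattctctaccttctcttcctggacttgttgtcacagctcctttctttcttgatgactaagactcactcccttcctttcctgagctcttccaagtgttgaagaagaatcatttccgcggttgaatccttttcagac

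The search covered 3 motifs on both strands: the interferon-stimulated response element as GAAA, any 2 bases and GAAA, the gamma-activated site as TTC, any 3 bases and GAA, and the NF-kappaB site as GGG, any 2 bases and TTTCC. They occurred in 3.44%, 8.30% and 1.63% of 32851 promoter windows of the same length. Of the 10 members, 9 had a window (Gsdmd was not matched), 12 windows in all. None held either interferon motif in these letters. Only Casp4 held the kappaB letters, in both of its overlapping windows, and the one printed has 2 matches that do not overlap each other or another motif. GGGGATTTCC begins 93 bases before the start site, and GGAAATGCCC, the same motif on the opposite strand, begins 14 bases before it. A match in letters is a description of the window and not evidence that a factor was bound.

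The normalized counts of Casp4 were 38.6, 26.0 and 39.9 in oil 1 to 3 and 37.1, 61.6 and 82.8 in tamoxifen 1 to 3, from 27 to 91 reads. Tamoxifen 2 and 3 were above every oil library, whereas tamoxifen 1 was within the oil range. The means of 34.9 ± 7.66 and 60.5 ± 22.9 (SD, n = 3) gave a 1.73-fold ratio and a log2 difference of 0.73 (−0.18 to 1.63, limma adjusted p = 0.67). An exact permutation test gave a two-sided p = 0.3.

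Without tamoxifen 1 the log2 difference of Casp4 grew to 1.04, with a 95% interval of 0.40 to 1.68 that does not include 0. It did not pass the correction over all genes in those 5 libraries (limma unadjusted p = 0.0049, adjusted p = 0.19), nor by edgeR (adjusted p = 0.18) or DESeq2 (adjusted p = 0.20). Those fits called 0.309% of genes higher and 0.0244% lower by limma, 0.35% and 0.0244% by edgeR, and 0.731% and 0.235% by DESeq2. An unadjusted limma p under 0.05 was reached by 6.04% of genes higher and 6.06% lower. With all 6 libraries the GC correction gave 1.36 (limma adjusted p = 0.52), in a fit that called 0.0163% of genes higher and 0% lower. The 1 setting that called a member weighted the libraries by their fit, which left tamoxifen 1 with a weight of 0.0377. There Casp4 was higher by 1.23 (limma adjusted p = 0.015), in a fit that called 3.82% of all genes higher and 2.54% lower. Leaving out tamoxifen 3 instead reduced the difference to 0.47 (limma adjusted p = 0.51), so the size also depended on that library.

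Per kb of transcript, Casp1 was lower than its neighbour in every library, and it varied more between those labelled tamoxifen. It had 8.08, 9.65 and 6.50 normalized counts in oil 1 to 3 and 6.39, 15.2 and 32.7 in tamoxifen 1 to 3. Tamoxifen 2 and 3 were above every oil library and tamoxifen 1 below them, the same arrangement of high libraries as for Casp4. Summed reads were 26 in oil (95% Poisson interval 17.0 to 38.1) and 56 in the libraries labelled tamoxifen (42.3 to 72.7). Of those 56, tamoxifen 3 held 36. With the filter removed, limma gave a log2 difference of 0.82 (adjusted p = 0.71) over 6 libraries and 1.38 (adjusted p = 0.50) without tamoxifen 1. Casp4 exceeded Casp1 per kb by 4.98-, 2.82- and 6.41-fold in oil 1 to 3 and by 6.05-, 4.24- and 2.64-fold in tamoxifen 1 to 3, and the groups overlapped in this ratio.

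The cytokine genes were close to the floor. Il1b, which encodes the fever-inducing cytokine matured by caspase-1, is on chromosome 2 at 129364570 to 129371139 on the minus strand. It was at 8.08, 3.86 and 0.929 in oil 1 to 3 and at 2.56, 8.08 and 12.7 in tamoxifen 1 to 3, from 1 to 14 reads. The groups overlapped (exact permutation test, two-sided p = 0.5), and without the filter limma gave 0.79 (adjusted p = 0.71) over 6 libraries and 1.34 (adjusted p = 0.56) without tamoxifen 1. Its antisense neighbour Il1bos shares 25 bp of exon with it and averaged 9.10 normalized counts, so without strand information some reads may belong to either.

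Il18 encodes an interferon-γ-inducing cytokine also matured by caspase-1, on chromosome 9 at 50554827 to 50581840 on the plus strand. It was at 8.98, 7.72 and 11.1 in oil 1 to 3 and at 3.83, 9.09 and 6.37 in tamoxifen 1 to 3, from 3 to 12 reads. Tamoxifen 2 was within the oil range and the other two below it, with an exact two-sided permutation p = 0.3. Il18 thus gave no sign of the higher values seen for Casp1 and Casp4 in tamoxifen 2 and 3.

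**Figure D3:**
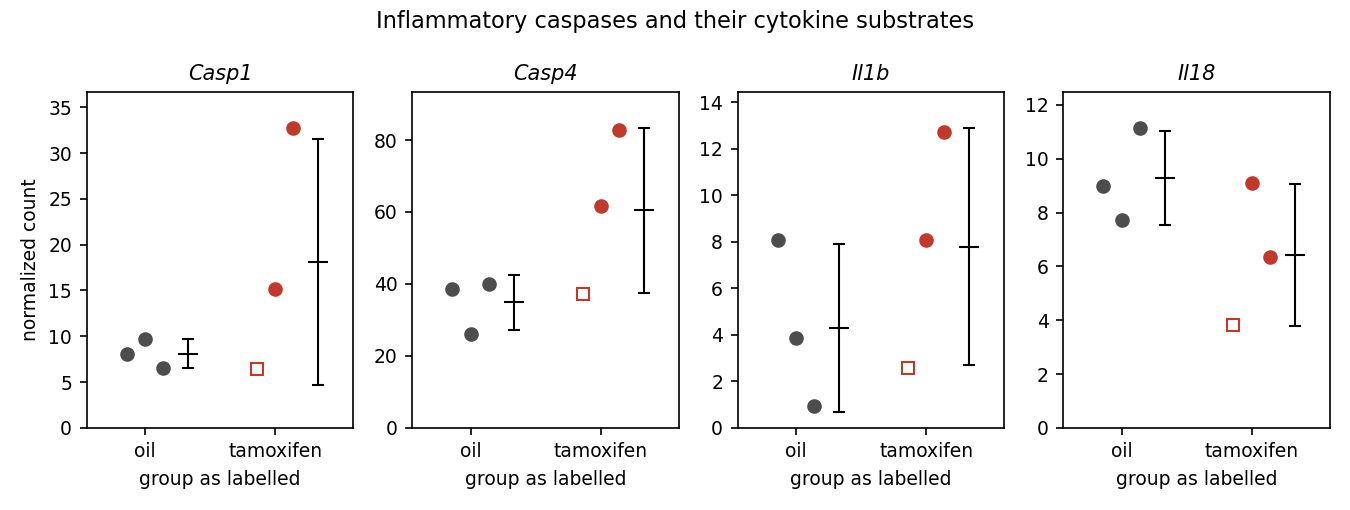
Normalized counts of Casp1, Casp4, Il1b and Il18 in each library, on linear axes that start at 0, by group as labelled. Points are libraries (open squares for tamoxifen 1), and the bars at their right are the mean ± SD of 3 libraries. For Casp1 and Casp4, tamoxifen 2 and 3 lie above every oil library and tamoxifen 1 does not.

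Over the 5 members tested, 0 were higher in every library labelled tamoxifen and 0 were lower in every one. Over all genes tested these shares were 7.86% higher and 9.69% lower. Without tamoxifen 1, Casp4 was higher in both remaining libraries and Gsdmd and Pycard were lower in both, where 12.6% of all genes were higher and 16.8% lower. The median log2 difference of the 5 was 0.13, against −0.017 for all genes tested, and −0.0021 against −0.021 without tamoxifen 1.

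**Figure D4:**
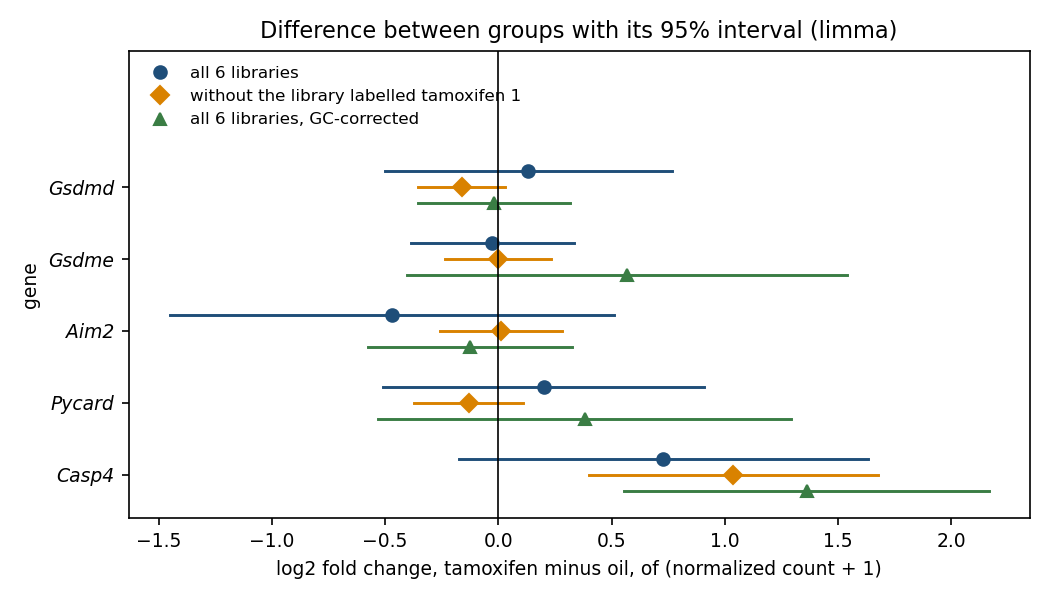
Log2 differences, tamoxifen minus oil, of the 5 members tested by limma, with 95% intervals as lines. Circles use all 6 libraries, diamonds leave out tamoxifen 1, and triangles use all 6 after a correction for GC content. Every uncorrected interval over 6 libraries includes 0, and only Casp4 has an interval above 0 without tamoxifen 1 and after the correction. The correction moved Casp4 in tamoxifen 1 from within the oil range to the highest library.

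Markers of other cell types moved with the groups. The 12 macrophage markers summed to 101 to 225 normalized counts in oil and to 232 to 326 in the libraries labelled tamoxifen. Vsig4 was at 0. Of the 7 that passed the filter, 4 were higher in every library labelled tamoxifen, beside 7.86% of all genes tested. Fcgr1 of the same list was at 2.79 to 6.75 in oil and 1.01 to 4.55 in the libraries labelled tamoxifen. The 9 neutrophil markers summed to 15.3 to 28.0 and 40.0 to 70.7, with Ly6g at 0. Only 1 of the 9 passed the filter, so no count of non-overlapping markers is set against the share of all genes tested. Mmp8, the 1 tested, went the other way, at 8.98 to 19.3 in oil and 0 to 13.6 in the libraries labelled tamoxifen. Its log2 difference was −1.47, and −0.30 without tamoxifen 1. By library the macrophage sums were 225, 109 and 101 in oil 1 to 3 and 326, 322 and 232 in tamoxifen 1 to 3. The 8 T and NK cell markers summed to 58.9 to 159 in oil and 196 to 662 in the libraries labelled tamoxifen. Most of that sum was Nkg7, Cd4 and Cd3d had at most 3 reads and only in libraries labelled tamoxifen, and Cd3e, Cd8a, Ncr1 and Klrb1c had none in any library. Over the other lists, monocyte markers summed to 458 to 530 and 181 to 661, dendritic cell markers to 85.3 to 130 and 84.9 to 175, and B and plasma cell markers to 16.4 to 35.9 and 51.1 to 97.0 (Ms4a1 had no read). The part of such cells in the Casp1, Casp4 and Il1b values was not tested.

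The wider pathway was described with 58 further genes in 6 roles, of which 36 passed the filter. Of these 36, limma over 6 libraries called 0. Before adjustment its p was under 0.05 for 6 of them, all higher in the libraries labelled tamoxifen, beside the 3.23% of all genes. However, 3 of the 36 (Nlrp6, Gzmb and Elane) reached the filter only through those libraries and so had to be higher there, and all 3 are among the 6, which leaves 3 of 33. Of the 36, 7 were higher in every library labelled tamoxifen and 5 lower in every one, beside the 7.86% and 9.69% of all genes. Without those 3 genes, 4 of 33 were higher in every one and 5 lower, with a median log2 difference of 0.23, against −0.017 for all genes tested. Of the 22 genes below the filter, 20 had at most 3 reads in every library, among them most other gasdermins (Gsdma2, Gsdmc, Gsdmc2, Gsdmc3 and Gsdmc4 had none) and the sensors Nlrp1a, Nlrp12, Naip1 and Mefv.

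Among pore genes, Gsdma, a further gasdermin, was at 113 to 124 in oil and 110 to 174 in the libraries labelled tamoxifen (log2 difference 0.23, or 0.071 without tamoxifen 1, limma adjusted p = 0.67 and 0.91). Ninj1, which ruptures the membrane after pores have formed, was at 449 to 489 and 475 to 649 (0.20, or 0.067 without tamoxifen 1, adjusted p = 0.67 and 0.84). The groups overlapped for both.

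Among sensors, Nlrp6, a sensor known from the gut epithelium, was at 3.59, 0 and 2.79 in oil 1 to 3 and at 29.4 in tamoxifen 1, 12.1 in tamoxifen 2 and, with 11 reads, slightly lower in tamoxifen 3. It is one of the 3 genes that the filter admitted through the libraries labelled tamoxifen, so its difference is given as values only. Naip5 and Naip6, receptors for bacterial flagellin, overlapped between groups at 345 to 467 against 445 to 537 and at 271 to 382 against 325 to 508. Naip copies are nearly identical, so the split of reads between them is uncertain.

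Among upstream genes, the guanylate-binding proteins, interferon-inducible GTPases that expose bacterial products to caspase-11, were represented by 3 listed genes, of which 2 were higher in every library labelled tamoxifen, where 7.86% of all genes were. Gbp3 was at 62.0, 85.9 and 65.9 in oil 1 to 3 and 266, 144 and 160 in tamoxifen 1 to 3. Its log2 difference was 1.36 (limma adjusted p = 0.67; 1.10 with adjusted p = 0.081 without tamoxifen 1), and DESeq2 called it over 6 libraries (adjusted p = 0.018). Gbp2 was at 105 to 143 in oil and 190 to 313 in the libraries labelled tamoxifen (0.92, limma adjusted p = 0.67). Irf1, an interferon-induced transcription factor, was at 66.5 to 76.2 and 92.9 to 221 (0.80, adjusted p = 0.67), and its difference was 0.40 without tamoxifen 1.

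Among proteases, Gzmb, the granule protease that can cut gasdermin E, stood furthest apart. It was at 5.39, 6.75 and 6.50 in oil 1 to 3 and at 83.1, 71.7 and 74.6 in tamoxifen 1 to 3. It too reached the filter only through the libraries labelled tamoxifen, so the tests given are those run without that filter on 24247 genes. There limma did not call it (log2 difference 3.43, adjusted p = 0.18; 3.37 with adjusted p = 0.19 without tamoxifen 1), and DESeq2 did (adjusted p = 3.61e-11). Nkg7, a gene of cytotoxic granules, was at 58.9 to 159 in oil and 193 to 661 in the libraries labelled tamoxifen, and is itself one of the T and NK cell markers summed above. The part of such cells in the Gzmb values was not tested. Elane, a neutrophil granule protease, had 0 to 2 reads in oil and 8 to 11 in the libraries labelled tamoxifen, and, admitted by the filter in the same way, is given as values only. Ctsg, another such protease, was at 51.1 to 90.1 and 75.8 to 188 (log2 difference 0.85, limma adjusted p = 0.67). By library the neutrophil marker sums were 15.3, 28.0 and 19.5 in oil 1 to 3 and 62.6, 70.7 and 40.0 in tamoxifen 1 to 3, and their part in the Elane and Ctsg values was not tested.

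Among cytokine receptors and inhibitors, Il18bp, the soluble decoy for interleukin-18, was at 17.1, 23.2 and 25.1 in oil 1 to 3 and 34.5, 35.4 and 45.5 in tamoxifen 1 to 3 (0.80, limma adjusted p = 0.67). Il1rap, the shared chain of the interleukin-1 receptor family, was at 843, 808 and 759 and at 222, 641 and 628. It was lower in every library labelled tamoxifen, by −0.84 over 6 libraries and −0.34 without tamoxifen 1 (limma adjusted p = 0.67 and 0.19). Il18r1 overlapped between groups at 2.79 to 18.0 and 12.8 to 27.3 (1.19), but not without tamoxifen 1 (1.49, limma adjusted p = 0.39). Among the oil libraries only oil 1 reached a normalized count of 10 for Il18r1. It thus passed the filter mainly through the libraries labelled tamoxifen, so its difference is no support for a change.

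Among brakes, Serpinb9, the inhibitor of granzyme B, was lower in every library labelled tamoxifen at 854 to 993 in oil and 363 to 800 (−0.58, limma adjusted p = 0.67), and its difference was −0.20 without tamoxifen 1. Tnfaip3, a brake on NF-kappaB, overlapped at 528 to 881 and 823 to 1104, and Trim30a, which dampens NLRP3, at 721 to 956 and 818 to 1208 (0.28). Without tamoxifen 1 the groups of Trim30a did not overlap (0.44, limma adjusted p = 0.20). Plk2, a polo-like kinase that was counted in this list without being a known brake, had 0 reads in every oil library and 4 to 15 reads in those labelled tamoxifen, which against a floor of 3 reads in each oil library is at least 2.96-fold higher. Plk2 was below the filter, and it was named after its values were seen.

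**Figure D5:**
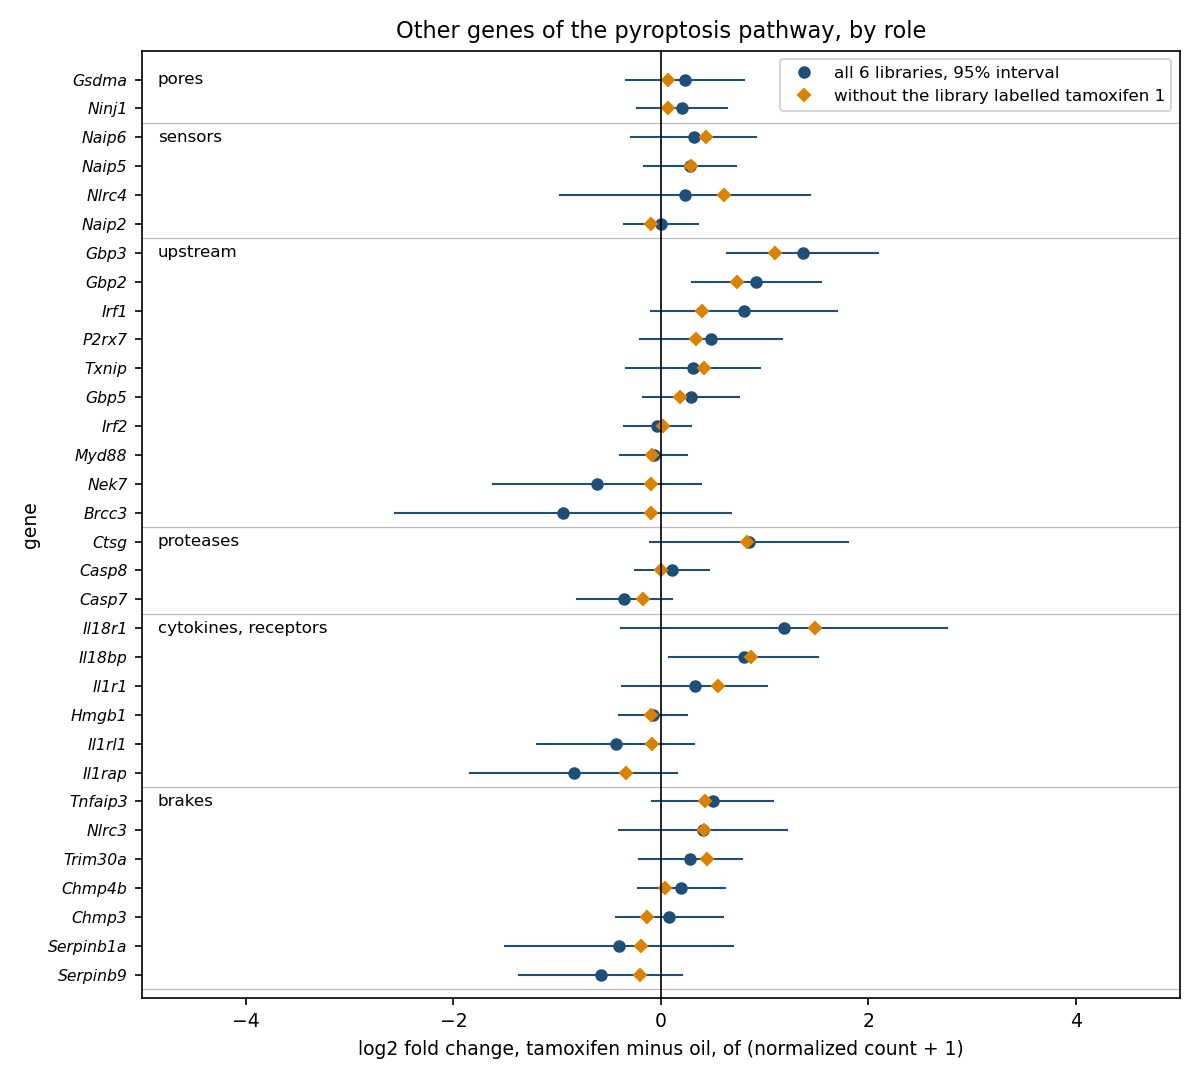
Log2 differences, tamoxifen minus oil, of other pathway genes that passed the filter, grouped by role on the vertical axis. Circles with lines are limma estimates over 6 libraries with 95% intervals, and diamonds leave out tamoxifen 1. Nlrp6, Gzmb and Elane are not drawn, because they reached the filter only through the libraries labelled tamoxifen. Without tamoxifen 1, Brcc3 goes from −0.95 to −0.10 and Nek7 from −0.61 to −0.10.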

How the data were processed

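RNA-seq of sorted leukemia cells was measured in 6 libraries, 3 per group, with groups taken from the sample labels. The authors extracted RNA with Trizol, sequenced paired ends, and used STAR and DESeq2 with mm10, per the study's methods and the submitters' processing notes; the annotation and strand setting are not given in the sources used here. The values the authors deposited are named counts but are a normalized signal, read counts divided by a size factor per library. Dividing by the value of 1 read recovered whole reads for 100% of values (within 0.01 of a read). Rows with no gene name (1832 of 55450, 0.0400% to 0.0614% of reads) were left out. Because the values were normalized, limma 3.58.1 (R 4.3.3) with a mean-variance trend on log2(value + 1) was the main test, on the 12298 genes that reached a value of 10 in 3 or more libraries, with Benjamini-Hochberg adjustment at 0.05 and two-sided p-values. edgeR 4.0.16 and DESeq2 1.42.0 on recovered reads were alternatives. Fold changes on this scale understate those of low genes.

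Symbols matched GENCODE vM21 (GRCm38) in 52048 rows, which gave positions, lengths and GC content. No 2 libraries of a group were alike within sampling noise (a chi-square of 10.2 or more per gene). The fits were tested on simulated data. Named were all members, the 3 genes with the smallest unadjusted p of each pathway role (only 2 pore genes were tested), 3 checks (Usp18, Isg15, Ifit1) and defining markers, plus Nek7, Brcc3, Plk2 and the pathway genes named as having no reads, chosen after their values were seen. Isg15 was at 214 to 231 in oil and 495 to 1152 in the libraries labelled tamoxifen. The members and lists were chosen with earlier results of these data known. Some genes of the lists are not reported here by name.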

Additional observations from a re-analysis of the deposited data

How the results depend on the processing

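No alternative reversed the direction of Casp4, which ranged from 0.47 to 1.36 on the log2 scale over 22 settings. The 1.36 came after the GC correction, which raised Casp4 in tamoxifen 1. Gsdmd, Pycard and Aim2 turned without the library labelled tamoxifen 1, Gsdme under the settings named below, and their limma, edgeR and DESeq2 adjusted p stayed above the threshold in every setting (lowest 0.23, for Gsdmd with library weights). Gsdmd (0.13) became −0.16 without tamoxifen 1, with or without the expression filter, −0.15 by DESeq2 and −0.14 by edgeR in the same 5 libraries, −0.18 with library weights and −0.018 after the GC correction. Pycard (0.20) became −0.13 with library weights and, without tamoxifen 1, −0.13 by limma, −0.12 by DESeq2 and −0.11 by edgeR. Without tamoxifen 1, Aim2 (−0.47) became 0.010 by limma (with or without the filter), 0.020 by DESeq2 and 0.030 by edgeR. Gsdme (−0.03), which was near 0 in most settings, became 0.57 after the GC correction, 0.042 with upper-quartile scaling, 0.019 with library weights and 0.0039 without oil 1. With tamoxifen 1 left out, it became 0.011 by DESeq2 and 0.021 by edgeR. With 1 library left out at a time, values ran from −0.16 to 0.32 for Gsdmd, −0.065 to 0.0039 for Gsdme, −0.72 to 0.010 for Aim2 and −0.13 to 0.39 for Pycard. The cause was not tested. DESeq2 and edgeR without tamoxifen 1 and the unfiltered fit without it were chosen after seeing the data.

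Replicate numbers showed no sign of pairing the libraries: deviations of same-numbered libraries correlated at −0.024, 0.061 and −0.15. The deviations were taken from group means that include tamoxifen 1, so such values cannot exclude a pairing. With the replicate number as a block, limma called 0 genes, and the block after the GC correction gave −0.018 for Gsdmd and 0.57 for Gsdme, as without the block. Over all genes, where the main fit called 0, the count was 71 by DESeq2, 2 after the GC correction, 782 with library weights, 65 at an unadjusted p under 0.005 with a log2 difference beyond 0.5, and 0 to 41 when 1 library was left out. It was 46 by edgeR and 230 by DESeq2 without tamoxifen 1. Members called went from 0 to 1 with library weights only. Wider pathway genes called were 2 by DESeq2 with and without tamoxifen 1, 1 by edgeR without it, 1 after the GC correction, 10 with library weights, 3 at the unadjusted threshold, and 0 to 1 with 1 library left out. Of these, each single call was Gzmb, the 3 include Gzmb and Elane, and the 10 include Nlrp6, Gzmb and Elane, which reached the filter only through the libraries labelled tamoxifen, so the calls of those genes in filtered fits are no support. Members higher in every library labelled tamoxifen numbered 1 after the GC correction and with upper-quartile scaling, and 0 to 1 with 1 library left out, while those lower numbered 0 to 2. After the GC correction that member was Casp4, whose value in tamoxifen 1 the correction had raised. Depth limits Casp1, Il1b and Il18, and Nlrp3 and Nlrp1b could not be ordered at all.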
